A study of Mus musculus with 8 samples.

Results

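The genes described here encode the machinery of autophagy, of the selective autophagy of the endoplasmic reticulum (ER-phagy), and of the lysosome, and they were followed in mouse pancreas with and without Sel1L. They are 37 genes chosen by their function, set among 18820 genes measured. A gene was read from array features whose only annotated symbol was that gene, and where a gene had several the brightest on average was used. This gave a value for 34 of the 37 genes. The 2 features of Becn1 were shared with Cntd1, the 2 features of Ctsb were shared with Fdft1, and Optn had no feature in the annotation, so these 3 genes were not analysed here. All 34 measured genes had a mean signal above that of the median gene.

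The study profiled total RNA of pancreas on 8 whole-transcript arrays and asked how gene expression changes when Sel1L is deleted in the adult, a protein that works with the ubiquitin ligase Hrd1 in ER-associated degradation. The first group held 4 arrays labelled inducible Sel1L1 knockout, from fl/fl;ERCre+ mice. The second held 4 arrays labelled wild type, from fl/fl;ERCre- littermates. Both groups therefore carried Sel1l alleles with exon 6 floxed, came from C57BL/6N embryonic stem cells crossed to C57BL/6J mice, and received tamoxifen at 8 to 20 weeks of age, injected as 5 μl per g body weight of a 5 mg/ml solution on each of 3 days. Only the knockout group carried the tamoxifen-activated ERCre, whose actin promoter is not restricted to pancreas, so loss of Sel1L in pancreas, its loss elsewhere and activity of Cre cannot be told apart. The interval between tamoxifen and dissection is not given here. The labels number the samples but do not say that each is a separate animal, so the p-values reflect only how far these samples differ, and that spread may be technical.

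In autophagy a double membrane closes around cargo and fuses with a lysosome, where acid hydrolases break the cargo down. A kinase complex starts the process, a lipid kinase complex marks the site, a pair of conjugation reactions attaches small Atg8 proteins to the membrane, and receptors tie cargo to these Atg8 proteins. ER-phagy uses receptors that sit in or on the ER, and it is a second route, beside ER-associated degradation, by which ER content is removed. Acinar cells, which fill most of the pancreas, carry a very large ER for the synthesis of digestive enzymes.

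Levels are log2 values on which a difference of 1 is a doubling, and a difference is knockout minus wild type. Sel1l itself was lower in knockout arrays, at 11.62 ± 0.114 in knockout and 12.38 ± 0.0105 in wild type (SD, n = 4 each), a difference of -0.76 (SE 0.0788, limma adjusted p = 0.000196). Which of its probes lie in exon 6 was not analysed here. All 14 measured acinar marker genes, among them Ctrb1, Cpa1 and Cela3b, lay above the median gene, and their mean was 12.46 to 12.63 in knockout arrays and 12.75 to 12.97 in wild type arrays. Of these acinar markers 8 were lower and 1 was higher in knockout. Of 9 endothelial markers 6 were higher, with list means of 7.59 to 7.83 in knockout and 7.27 to 7.44 in wild type. None of 16 macrophage markers passed the test (lowest limma adjusted p = 0.182), but their mean varied widely between arrays, at 6.90 to 7.81 in knockout and 5.74 to 7.94 in wild type, with wild type replicate 2 the lowest. That array was also lowest in stellate and fibroblast markers, at 7.20, where the remaining wild type arrays had 8.31 to 8.70. It was the highest wild type array in islet markers (8.45, against 7.21 to 7.91). In bulk tissue, fewer cells of a type and less RNA per cell cannot be told apart. The part of these cell type differences in the results below was not tested, except where values are given.

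Of the 34 measured genes, 7 were higher in knockout, 5 were lower and 22 did not pass a limma adjusted p of 0.05 over all 18820 genes. The share called was 35.3%, against 28.7% of all genes tested (16.1% higher and 12.6% lower). Among the 9410 genes above the median level it was 38.6%, with 2622 genes higher and 1012 lower. The members are brighter still, with a median level at percentile 88.9, and no share was computed for genes of matched brightness. The median difference was 0.06, beside -0.04 over all genes and 0.13 over the genes above the median level. No member changed by as much as 2-fold, and the called members differed by 1.18-fold to 1.65-fold. In all 12 called genes the 4 knockout values lay outside the range of the 4 wild type values. The call and the separation are read from the same values, so here and below the separation is a description and not independent support. Such separation was seen in 16 members (47.1%), against 32.2% of all genes and 42.7% of those above the median level.

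The balance of directions depended on how the arrays were scaled. On the deposited values 7 members were higher and 5 lower. Quantile normalization gave 4 higher and 9 lower, centring each array on its median gave 5 higher and 9 lower, and cyclic loess gave 4 higher and 9 lower. Over all genes 56.0% of the calls on the deposited values were higher, a share that became 42.9% with quantile normalization, 36.3% with centring and 48.1% with cyclic loess. Fitted alone, the genes above the median level had 72.2% of their calls higher, and the members in that fit had 57.1%. Under all 16 alternative settings 7 genes passed the test in the same direction. Sqstm1, Atg13, Tex264 and Ctsl were the 4 that were higher, and Ulk1, Ccpg1 and Lamp1 the 3 that were lower.

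**Figure D1:**
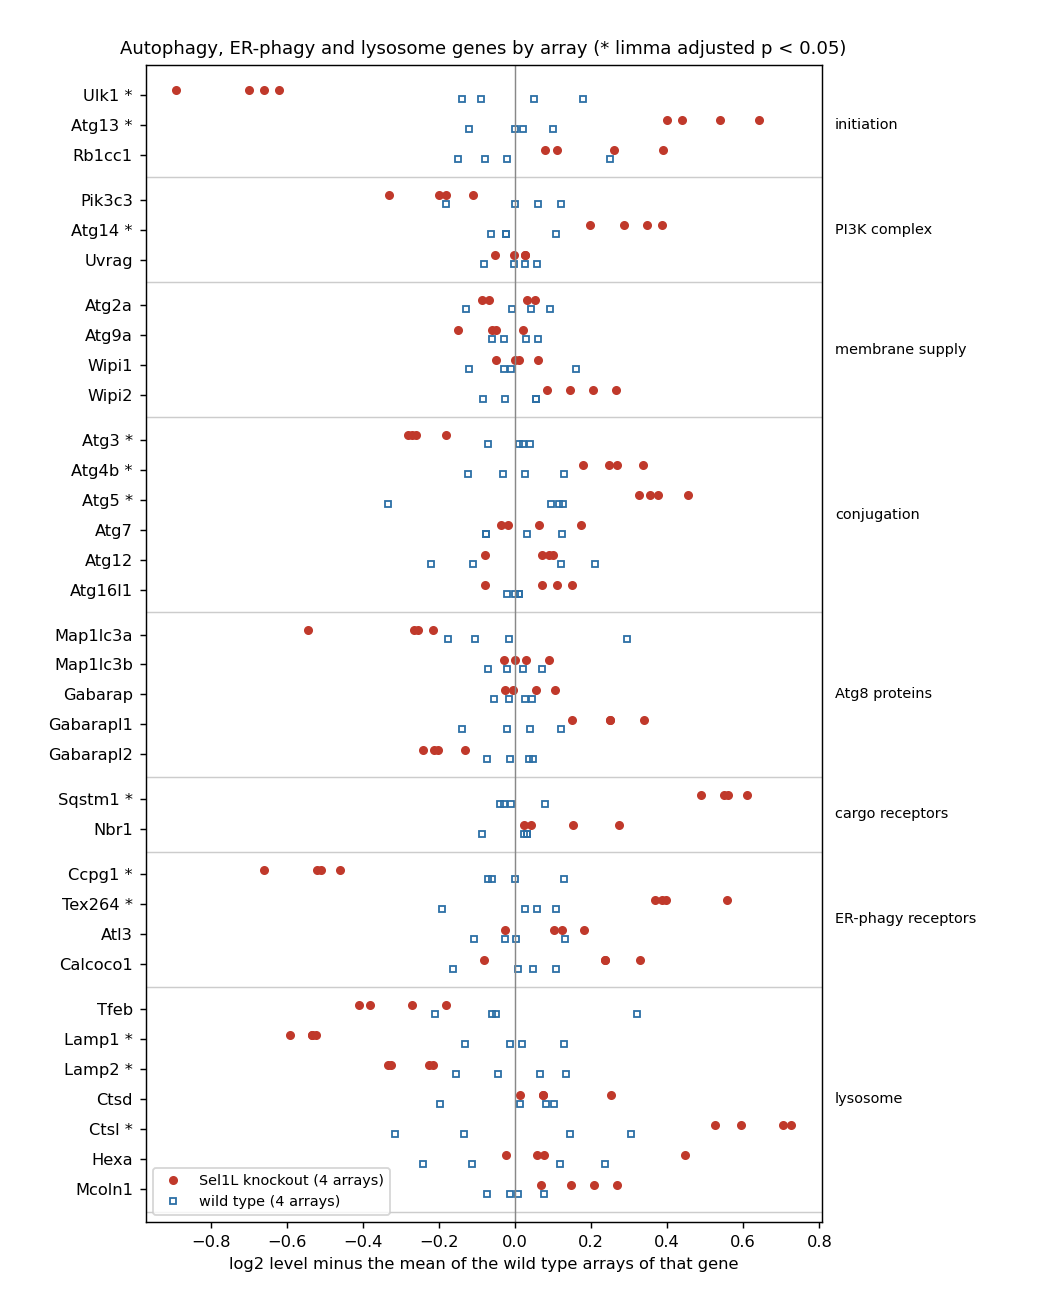
Log2 level of each of the 34 measured genes on each array, minus the mean of the 4 wild type arrays of that gene; filled circles are the 4 Sel1L knockout arrays, open squares the 4 wild type arrays, rows are grouped by role and an asterisk marks a limma adjusted p below 0.05. The knockout points of Ulk1, Ccpg1 and Lamp1 lie to the left of all wild type points and those of Sqstm1, Atg13, Tex264 and Ctsl to the right.

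The initiation complex was split. Ulk1, the protein kinase that starts autophagosome formation, was lower in knockout, whereas Atg13, the regulatory subunit that binds it, was higher. The level of Ulk1 was 8.39, 8.43, 8.35 and 8.16 in the 4 knockout arrays, against 9.23, 9.10, 8.96 and 8.91 in the 4 wild type arrays. Every knockout value lay below every wild type value. Ulk1 fell 1.65-fold, with a change of -0.72 (SE 0.0977, limma adjusted p = 0.00083), the largest difference among the 34 genes. The level of Atg13 was 10.30, 10.16, 10.40 and 10.20 in the 4 knockout arrays, against 9.64, 9.86, 9.78 and 9.76 in the 4 wild type arrays. The groups did not overlap, and Atg13 rose 1.42-fold, by 0.51 (SE 0.0854, limma adjusted p = 0.00254). Rb1cc1, which encodes the scaffold protein FIP200 of the same complex, ranged from 7.82 to 8.13 in knockout arrays, against 7.59 to 7.99 in wild type arrays. Its difference of 0.21 (SE 0.109, adjusted p = 0.177) did not pass. A second, dimmer feature annotated to Rb1cc1 differed the other way, by -0.49 (SE 0.113, adjusted p = 0.0111 in a fit of every feature), so no direction was given by the array for this gene.

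The lipid kinase complex showed smaller differences. Atg14, the subunit that directs the kinase to sites of autophagosome formation, had a level of 6.88, 6.92, 6.82 and 6.73 in the 4 knockout arrays, against 6.51, 6.51, 6.47 and 6.64 in the 4 wild type arrays. It rose without overlap of the groups, by 0.30 (SE 0.0777, limma adjusted p = 0.0174). Among the other scalings and the fits without 1 array, this call was lost after quantile normalization (difference 0.14, adjusted p = 0.209), after cyclic loess (0.16, adjusted p = 0.151) and without knockout replicate 2. Pik3c3, the catalytic subunit, ranged from 7.50 to 7.72 in knockout arrays, against 7.65 to 7.95 in wild type arrays, and its difference of -0.21 (SE 0.0902, adjusted p = 0.112) did not pass on the deposited values. It passed as lower under each of the other 3 scalings, at -0.35 to -0.28 (adjusted p = 0.0268 to 0.0389). Uvrag, the subunit of the endosomal form of the complex, differed by 0.00 with an SE of 0.0705. Within the lipid kinase genes, then, the subunit that passed on the deposited values and the subunit that passed under other scalings had opposite signs.

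Genes for membrane supply gave no call. Atg2a, which encodes a lipid transfer protein, differed by -0.01 (SE 0.0789, adjusted p = 0.905), and Atg9a, which encodes a lipid scramblase carried by vesicles, by -0.06 (SE 0.0736, adjusted p = 0.552). Wipi1 and Wipi2, which encode proteins that bind the lipid product of the kinase, differed by 0.01 (SE 0.0813, adjusted p = 0.95) and 0.17 (SE 0.0767, adjusted p = 0.115). The Wipi2 groups did not overlap, with 9.10 to 9.28 in knockout arrays, against 8.93 to 9.07 in wild type arrays. The change in the ratio of Wipi1 to Wipi2 within an array was -0.17 (SE 0.0448), with all 4 knockout ratios below all 4 wild type ratios (exact two-sided permutation p = 0.0286, adjusted over the 14 pairs of related genes 0.0444). A dim second feature of Wipi2 differed by -0.19, opposite to the first, and did not pass (adjusted p = 0.168). With both features averaged Wipi2 differed by -0.01 (SE 0.0743), beside 0.01 for Wipi1, so the change of ratio rests on the brighter feature.

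Among the 6 conjugation genes 2 rose, 1 fell and 3 did not pass. Atg5, whose product joins Atg12 to form the enzyme that places Atg8 proteins on membrane, had a level of 7.34, 7.37, 7.39 and 7.47 in the 4 knockout arrays, against 6.68, 7.14, 7.13 and 7.11 in the 4 wild type arrays. The groups did not overlap, although wild type replicate 1 lay well below the other 3 wild type arrays. The difference was 0.38 (SE 0.113, limma adjusted p = 0.0326). Atg4b, the protease that trims Atg8 proteins, rose by 0.26 (SE 0.0798, adjusted p = 0.0364), with 7.25 to 7.41 in knockout arrays, against 6.95 to 7.20 in wild type arrays. Atg3, the E2-like enzyme that carries Atg8 proteins, had a level of 8.50, 8.51, 8.52 and 8.60 in the 4 knockout arrays, against 8.80, 8.79, 8.71 and 8.82 in the 4 wild type arrays. It fell without overlap, changing by -0.24 (SE 0.0698, limma adjusted p = 0.0276). Of these 3 calls the scaling removed those of Atg5 (0.21 to 0.30, adjusted p = 0.0837 to 0.189) and Atg4b (0.09 to 0.18, adjusted p = 0.131 to 0.427), while Atg3 kept its own (-0.37 to -0.32, adjusted p = 0.00515 to 0.0119). The call of Atg3 was instead lost without wild type replicate 2 or 4 or knockout replicate 1, 2 or 3, with adjusted p up to 0.0716. That of Atg5 was lost without any 1 of the 4 knockout arrays (adjusted p up to 0.0823), and that of Atg4b without any 1 array other than wild type replicate 4 (adjusted p up to 0.0918). Atg7, the E1-like enzyme of both reactions, differed by 0.05 (SE 0.0839, adjusted p = 0.702). Atg12 differed by 0.04 (SE 0.107, adjusted p = 0.774) and Atg16l1, the partner of the Atg12 and Atg5 conjugate, by 0.07 (SE 0.0755, adjusted p = 0.527).

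None of the 5 Atg8 genes passed on the deposited values, but they did not move alike. Map1lc3b, the gene of the LC3B protein most used as an autophagosome marker, ranged from 11.33 to 11.45 in knockout arrays, against 11.29 to 11.43 in wild type arrays. Its difference was 0.02 (SE 0.0718, adjusted p = 0.823), and its second feature differed by 0.07 (SE 0.0667). Gabarap ranged from 12.21 to 12.34 in knockout arrays, against 12.18 to 12.28 in wild type arrays, a difference of 0.03 (SE 0.0703, adjusted p = 0.739). The groups of both genes overlapped.

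The other 3 Atg8 genes each had groups that did not overlap. The level of Gabarapl1 was 10.17, 10.17, 10.26 and 10.07 in the 4 knockout arrays, against 9.90, 10.04, 9.78 and 9.96 in the 4 wild type arrays. It was higher in knockout by 0.25 (SE 0.0832, limma adjusted p = 0.0502), just outside the threshold. The level of Gabarapl2 was 10.78, 10.82, 10.89 and 10.81 in the 4 knockout arrays, against 10.95, 11.06, 11.01 and 11.07 in the 4 wild type arrays, with a change of -0.20 (SE 0.0708, adjusted p = 0.0621). The level of Map1lc3a was 7.43, 7.72, 7.71 and 7.76 in the 4 knockout arrays, against 7.87, 8.27, 7.80 and 7.96 in the 4 wild type arrays, with a change of -0.32 (SE 0.121, adjusted p = 0.0748). Gabarapl2 and Map1lc3a passed as lower under each of the other 3 scalings (adjusted p = 0.014 to 0.0252 and 0.0213 to 0.0408), and Gabarapl1 passed under none of them (adjusted p = 0.126 to 0.211). Gabarapl1 passed as higher in 5 other settings, with adjusted p of 0.0201 to 0.0491, among them the fit without wild type replicate 2 (0.0407).

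Ratios of 2 genes within an array do not depend on scaling an array as a whole by 1 factor, and they tested whether family members changed unequally. Of 14 such pairs over 5 families, 9 had ratios that did not overlap between the groups. No such share was computed for pairs of genes in general, and most of the 14 pairs reuse the same 5 Atg8 genes. Singly, 32.2% of all genes and 42.7% of those above the median level had groups that did not overlap. Gabarapl1 rose relative to Gabarapl2 by 0.45 (SE 0.0541) and relative to Map1lc3a by 0.56 (SE 0.11). These 2 ratios had to separate, because the single genes had already separated in opposite directions, so their p adds no further evidence. It also rose relative to Gabarap, by 0.21 (SE 0.0706), and relative to Map1lc3b, by 0.22 (SE 0.0794). Gabarap rose relative to Gabarapl2 by 0.23 (SE 0.0241), and Map1lc3a fell relative to Map1lc3b by 0.34 (SE 0.134). Each of these ratios gave an exact two-sided permutation p of 0.0286, the smallest that 4 against 4 arrays allow, and 0.0444 when adjusted over the 14 pairs. The adjusted value follows from how many pairs reached that smallest p. For Gabarap against Map1lc3b the change of ratio was 0.01 (SE 0.0665, exact permutation p = 0.914). Probes of near-identical gene copies can share signal, so the split between these family members carries that uncertainty.

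The cargo receptor Sqstm1 gave the lowest adjusted p of all 34 genes. Sqstm1 encodes p62, which binds ubiquitinated cargo and Atg8 proteins and is itself degraded by autophagy. Its level was 11.29, 11.28, 11.22 and 11.34 in the 4 knockout arrays, against 10.81, 10.70, 10.72 and 10.69 in the 4 wild type arrays. The groups were far apart for their spread, and Sqstm1 rose 1.47-fold, by 0.55 (SE 0.0712, limma adjusted p = 0.000634). Nbr1, a related ubiquitin-binding receptor, ranged from 10.29 to 10.54 in knockout arrays, against 10.18 to 10.30 in wild type arrays, a difference of 0.12 (SE 0.0819, adjusted p = 0.27) that did not pass. Sqstm1 rose relative to Nbr1 within arrays by 0.43 (SE 0.0878, exact two-sided permutation p = 0.0286, adjusted over the 14 pairs 0.0444). RNA levels do not measure the amount of p62 protein.

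ER-phagy receptors moved in opposite directions. Ccpg1 encodes a receptor in the ER membrane, and its loss in mice is known to disturb the ER of exocrine pancreas. Its level was 10.09, 10.08, 10.14 and 9.94 in the 4 knockout arrays, against 10.60, 10.73, 10.53 and 10.54 in the 4 wild type arrays. The knockout arrays were all lower than any wild type array, and Ccpg1 fell 1.45-fold, changing by -0.54 (SE 0.0814, limma adjusted p = 0.00145). Tex264, which encodes another receptor in the ER membrane, had a level of 8.34, 8.36, 8.37 and 8.53 in the 4 knockout arrays, against 8.00, 8.03, 7.78 and 8.08 in the 4 wild type arrays. It rose without overlap, by 0.43 (SE 0.0896, limma adjusted p = 0.00719), a 1.35-fold rise. Atl3, which encodes an atlastin that shapes ER tubules and binds Gabarap, differed by 0.09 (SE 0.0831, adjusted p = 0.405), and Calcoco1, which encodes a soluble receptor, by 0.18 (SE 0.106, adjusted p = 0.227). Both of these had overlapping groups.

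**Figure D2:**
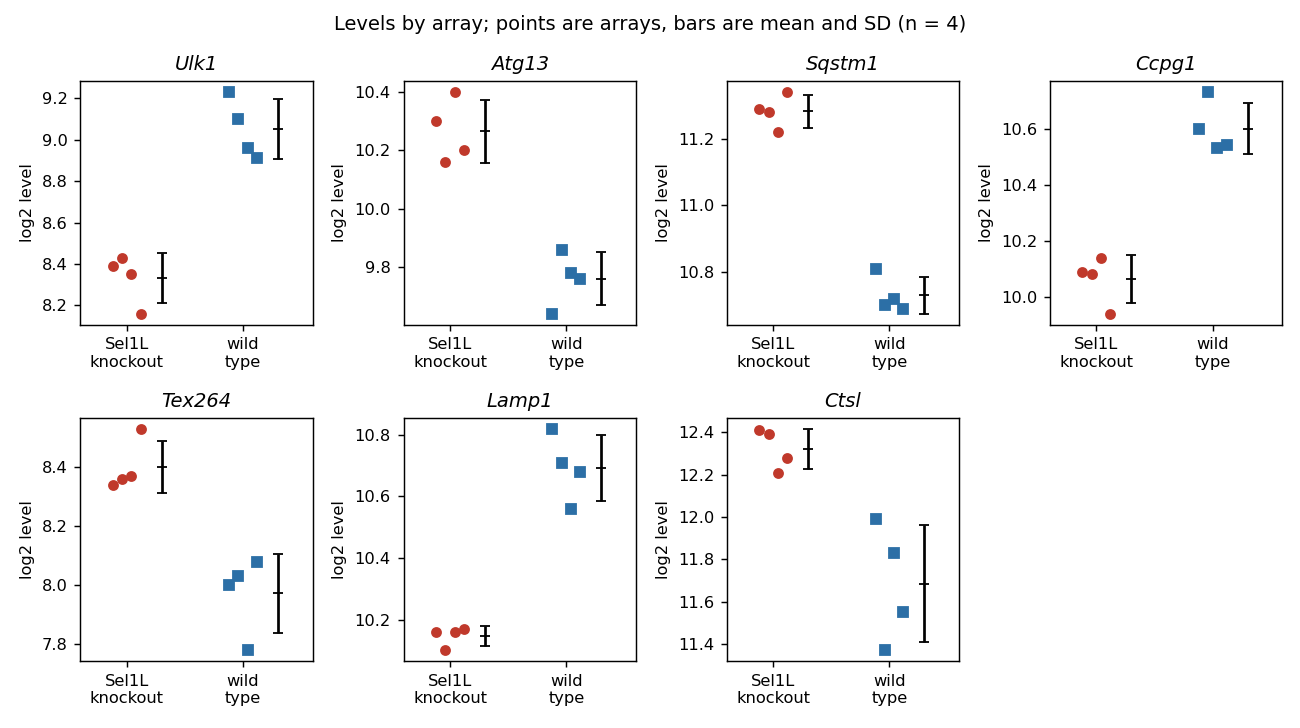
Log2 level on each array of the 7 genes that passed the test under every setting tried; circles on the left of each panel are the 4 Sel1L knockout arrays, squares on the right the 4 wild type arrays, and the bars give mean and SD (n = 4), with a separate axis range in each panel that does not start at 0. In each panel all knockout points lie on one side of all wild type points, with Ccpg1 at 9.94 to 10.14 in knockout and 10.53 to 10.73 in wild type.

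Lysosome genes held both falls and a rise. Lamp1 and Lamp2 encode the abundant glycoproteins that line the lysosomal membrane, and both fell. The level of Lamp1 was 10.16, 10.10, 10.16 and 10.17 in the 4 knockout arrays, against 10.82, 10.71, 10.56 and 10.68 in the 4 wild type arrays. The knockout arrays lay close together and below every wild type array, and Lamp1 fell 1.46-fold, changing by -0.54 (SE 0.0782, limma adjusted p = 0.00113). The level of Lamp2 was 10.33, 10.34, 10.23 and 10.22 in the 4 knockout arrays, against 10.40, 10.51, 10.62 and 10.69 in the 4 wild type arrays. It fell without overlap, changing by -0.28 (SE 0.0853, limma adjusted p = 0.0376), and the call was lost when any 1 array other than wild type replicate 1 was left out (adjusted p up to 0.0969). The change of the ratio of Lamp1 to Lamp2 within arrays was -0.27 (SE 0.119), with overlapping ratios (exact permutation p = 0.0571).

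Cathepsin L moved the other way. Ctsl, which encodes this lysosomal cysteine protease, had a level of 12.41, 12.39, 12.21 and 12.28 in the 4 knockout arrays, against 11.99, 11.37, 11.83 and 11.55 in the 4 wild type arrays. The groups did not overlap, and Ctsl rose 1.55-fold, by 0.64 (SE 0.133, limma adjusted p = 0.00713). Ctsd, the gene of the aspartic protease cathepsin D, ranged from 10.93 to 11.17 in knockout arrays, against 10.72 to 11.02 in wild type arrays, a difference of 0.10 (SE 0.0936, adjusted p = 0.441). Hexa, the gene of a hexosaminidase subunit, ranged from 8.17 to 8.64 in knockout arrays, against 7.95 to 8.43 in wild type arrays, a difference of 0.14 (SE 0.135, adjusted p = 0.454). Ctsl rose relative to Ctsd within arrays by 0.54 (SE 0.124, exact two-sided permutation p = 0.0286, adjusted over the 14 pairs 0.0444). Wild type replicate 2 held the lowest value of Ctsl, Ctsd and Hexa. Its macrophage marker mean was 5.74 where the remaining wild type arrays had 7.27 to 7.94. Its stellate and fibroblast marker mean was 7.20 where they had 8.31 to 8.70, and the part of either cell type was not tested. Without that array Ctsl differed by 0.53 (SE 0.116, limma adjusted p = 0.0114), Ctsd by 0.03 and Hexa by 0.06. Lamp1 differed by -0.54 with and without it.

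**Figure D3:**
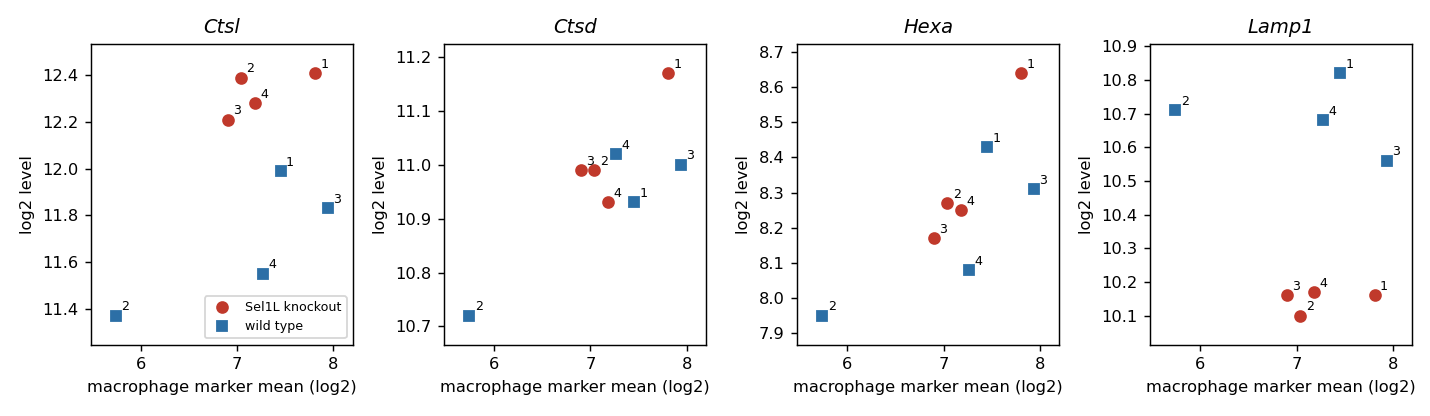
Log2 level of Ctsl, Ctsd, Hexa and Lamp1 (vertical axes, each with its own range) against the mean log2 level of 16 macrophage markers (horizontal axes) on each array; circles are the 4 Sel1L knockout arrays, squares the 4 wild type arrays, and digits are replicate numbers. Wild type replicate 2 lies apart at a marker mean of 5.74 and holds the lowest level of Ctsl (11.37), Ctsd (10.72) and Hexa (7.95), but not of Lamp1. The same array was also lowest in stellate and fibroblast markers (7.20), which are not drawn.

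Mcoln1, the gene of the lysosomal calcium channel TRPML1, differed by 0.17 (SE 0.0773, adjusted p = 0.118) with overlapping groups. Tfeb encodes a transcription factor that drives lysosomal and autophagy genes. It ranged from 6.51 to 6.74 in knockout arrays, against 6.71 to 7.24 in wild type arrays, and its difference of -0.31 (SE 0.117, adjusted p = 0.0732) did not pass on the deposited values. It passed as lower under each of the other 3 scalings, at -0.47 to -0.39 (adjusted p = 0.0139 to 0.0348). It also passed with array weights (-0.33, limma adjusted p = 0.0471) and without wild type replicate 1 (-0.38, limma adjusted p = 0.0438). Without wild type replicate 3, the array at 7.24, the difference was smaller, at -0.20 (SE 0.0928, limma adjusted p = 0.129). TFEB is controlled chiefly by its location in the cell, which RNA does not measure.

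TFEB binds a palindromic element that contains the letters CACGTG, so the promoters of the listed genes were searched for it. RefSeq promoters of the GRCm38.p6 assembly were found for 30 of the 37 genes, as 34 windows since some genes have several starts, and the 250 bases before each start were read. CACGTG, which is its own reverse complement, was present in 7 of the 34 windows (20.6%) and in 6.02% of all 32851 windows of the same length. The longer form TCACGTGA, which overlaps it, was present in 3 of 34 windows (8.82%), those of Atg3, Ctsd and Mcoln1, and in 0.785% of all windows. All windows were not matched to those of the members in brightness of the gene or in base composition. These shares use no array values, and the members were chosen by function, so they are not a result of the knockout comparison. The stretch nearest the start in each of the 7 promoters is shown because these genes differ in how they moved, with CACGTG in capitals and each sequence 5′ to 3′ on the strand of its gene.
Lamp1: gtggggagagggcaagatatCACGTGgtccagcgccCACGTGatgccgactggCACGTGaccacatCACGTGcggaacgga
Atg3: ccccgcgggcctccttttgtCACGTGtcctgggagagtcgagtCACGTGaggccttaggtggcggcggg
Ctsl: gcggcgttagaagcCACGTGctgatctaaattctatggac
Atg5: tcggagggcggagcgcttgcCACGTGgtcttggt
Mcoln1: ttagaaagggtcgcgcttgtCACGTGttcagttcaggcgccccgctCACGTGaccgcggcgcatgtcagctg
Ctsd: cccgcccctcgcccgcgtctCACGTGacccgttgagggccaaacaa
Atg7: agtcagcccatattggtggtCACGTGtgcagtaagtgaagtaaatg
The stretches lie at chr8:13159080-13159160 (plus strand) for Lamp1, chr16:45158715-45158783 (plus) for Atg3, chr13:64370731-64370770 (minus) for Ctsl, chr10:44268305-44268338 (plus) for Atg5, chr8:3500428-3500499 (plus) for Mcoln1, chr7:142387900-142387945 (minus) for Ctsd and chr6:114670944-114670989 (plus) for Atg7. Lamp1 held 4 matches within the 61 bases before its start, the most among the 30 genes searched. Lamp1 and Atg3 were lower in knockout, Ctsl and Atg5 were higher, and Mcoln1, Ctsd and Atg7 did not pass, so the 7 genes with the element shared no direction. Other elements were searched on both strands in the same windows. An antioxidant element, TGACNNNGC, was present in 3 windows (8.82%, against 10.2% of all windows), those of Atg13, Ctsd and Hexa, and a composite ATF4 site, TGATGNAA, in 1 (2.94%, against 3.45%), that of Ctsl. A UPR element, TGACGTGG, and a FOXO site, GTAAACA, were in 0 of the 34 windows, against 0.563% and 3.17% of all windows. A match describes the letters in the window and not binding of a factor.

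**Figure D4:**
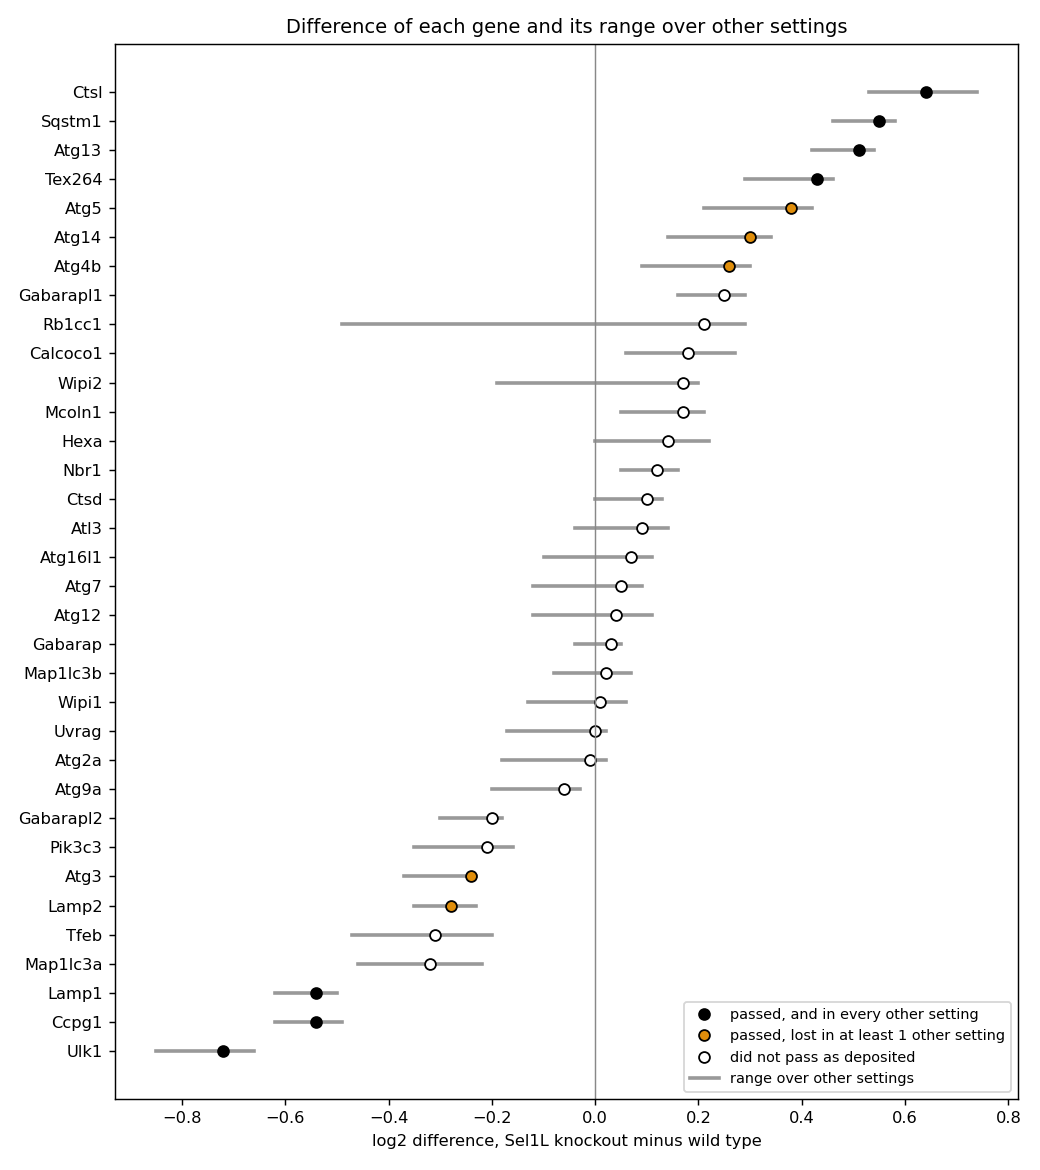
Log2 difference, Sel1L knockout minus wild type, of each of the 34 genes (circles) with the lowest and highest value over the other settings tried (grey lines); black circles passed the test in every setting, orange circles passed on the deposited values and lost the call in at least 1 setting, and open circles did not pass on the deposited values. The 7 black circles lie at both ends of the order, and the grey line of Rb1cc1 crosses 0 because its second feature differed by -0.49.

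Other genes of the same pathways, in 9 lists of 198 genes of which 181 were measured, gave 39 higher and 24 lower on the deposited values. The balance turned over with 20 higher and 32 lower after quantile normalization, 28 and 30 after centring and 19 and 32 after cyclic loess. The share called was 34.8%, beside 28.7% of all genes and 38.6% of genes above the median level. In the rest of the autophagy machinery 9 of 21 were higher and 1 was lower, and under the other 3 scalings 6 to 7 were higher and 1 lower. Trp53inp1, an Atg8-binding protein that p53 is known to induce, rose by 1.46 (SE 0.0869), and its relative Trp53inp2, which binds Atg8 proteins as well, changed by -1.64 (SE 0.108). Wdr45, a relative of the WIPI genes, rose by 0.69 (SE 0.0788), and Tmem41b, an ER scramblase needed for autophagosome formation, by 0.74 (SE 0.114). Among other cargo receptors 5 of 11 were higher and 1 was lower, with 3 to 5 higher under the other scalings. Stbd1, a glycogen receptor, rose by 1.49 (SE 0.173), from a low level of 4.52 in wild type to 6.01 in knockout. The medians of the arrays were 4.938 to 5.053. The mitochondrial receptor genes Fundc1 and Phb2 rose by 0.46 (SE 0.0809) and 0.44 (SE 0.081), and Tollip, a ubiquitin-binding adaptor, changed by -0.49 (SE 0.0706).

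The other ER-phagy genes also held both directions, with 5 of 14 higher and 3 lower (3 and 3 under each other scaling). The higher count was also 3 without wild type replicate 1, 3 or 4 or knockout replicate 1, 2 or 4. The 3 that fell encode receptors in the ER membrane, but other receptor genes did not fall. Retreg1, which encodes the receptor FAM134B of ER sheets, changed by -0.67 (SE 0.0976). Sec62, a translocon component that serves as a receptor in recovery from ER stress, changed by -0.62 (SE 0.0918), and Retreg3, a relative of Retreg1, by -0.26 (SE 0.0738). Retreg2 did not pass, at -0.04 (SE 0.0728, limma adjusted p = 0.727). Rtn3 did not pass either, at 0.22 (SE 0.0789, limma adjusted p = 0.0589), although its groups did not overlap and knockout was higher. Tex264, described above, rose. Those that rose included Cdk5rap3 and Ufl1, parts of the ligase that attaches UFM1 at the ER, at 0.75 (SE 0.104) and 0.43 (SE 0.0835), and Atl1, an atlastin, at 0.55 (SE 0.0992). Of 17 genes of autophagosome fusion 3 were higher on the deposited values, namely Vps11 at 0.50 (SE 0.135), Tecpr1 at 0.41 (SE 0.123) and Stx17 at 0.34 (SE 0.103), and at most 1 was higher under the other scalings or without wild type replicate 1 or knockout replicate 1, 2 or 3.

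Lysosomal genes outside the members had no common direction on the deposited values. Under each of the other 3 scalings the hydrolase, membrane and V-ATPase lists each had more lower than higher calls. For the hydrolase and V-ATPase lists this already held on the deposited values, by a narrow margin. Of 30 other hydrolases 4 were higher and 5 lower, and under the other scalings 3 were higher and 8 to 11 lower. The lower count was 2 without knockout replicate 3 or 4 and 3 without wild type replicate 1 or 4. Gaa, the acid alpha-glucosidase gene, rose by 0.71 (SE 0.1), Ctsc, the gene of cathepsin C, by 0.67 (SE 0.101) and Idua, a glycosaminoglycan hydrolase gene, by 0.64 (SE 0.117). Arsb, the gene of arylsulfatase B, changed by -1.10 (SE 0.0724), Smpd1, acid sphingomyelinase, by -0.44 (SE 0.0748) and Man2b1, a mannosidase, by -0.60 (SE 0.164). Lysosomal membrane proteins and cofactors had 5 of 25 higher and 5 lower, with 1 to 4 higher and 5 to 7 lower under the other scalings. The higher count was 2 without knockout replicate 1 and 3 without wild type replicate 2 or knockout replicate 2, 3 or 4. Npc1, a cholesterol exporter, rose by 0.72 (SE 0.14), Scarb2 by 0.49 (SE 0.129) and Tmem175, an ion channel, by 0.37 (SE 0.0832). Npc1 (7.64) and Scarb2 (7.73), like Gaa, Ctsc and Idua, had their lowest value in wild type replicate 2. This array was lowest both in macrophage markers and in stellate and fibroblast markers. Without it the count of hydrolases called higher was 4, the same as with all arrays. Gm2a, the activator protein that works with hexosaminidase, changed by -0.73 (SE 0.147), the tetraspanin gene Cd63 by -0.53 (SE 0.0764) and Ostm1 by -0.34 (SE 0.0765). The V-ATPase, the proton pump of the lysosome, had 1 of 16 subunit genes higher, Atp6v0e at 0.50 (SE 0.103), and 2 lower, Atp6v0a2 at -0.35 (SE 0.0814) and Atp6ap1 at -0.32 (SE 0.0979). The higher count was 2 without wild type replicate 3, and the lower count was 1 without any 1 array other than wild type replicate 1.

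Genes that sort enzymes to the lysosome had 1 of 15 higher and 4 lower. Sort1, the gene of sortilin, changed by -0.42 (SE 0.0781), Igf2r, the large mannose 6-phosphate receptor gene, by -0.37 (SE 0.0774) and the adaptor gene Gga2 by -0.33 (SE 0.0774), and the 4 lower calls were counted under every scaling. Vps29, a retromer subunit gene, rose by 0.35 (SE 0.0738). The higher count of this list was 0 after quantile normalization or cyclic loess and 1 after centring. Among the fits without 1 wild type array, the lower count was 3 without replicate 2 or 4. Of 32 genes that control TFEB and mTORC1, 6 were higher and 3 lower, with 1 to 3 higher and 3 to 4 lower under the other scalings. The higher count was 1 without knockout replicate 3 and 3 without knockout replicate 2 or 4. Fnip2 and Flcn, which encode a folliculin partner and folliculin itself, changed by -1.36 (SE 0.128) and -0.40 (SE 0.122), and Foxo1, a transcription factor of autophagy genes, by -0.59 (SE 0.101). Ppp3ca, a catalytic subunit of the phosphatase calcineurin, rose by 0.49 (SE 0.0821), Lamtor2, of the lysosomal Ragulator complex, by 0.68 (SE 0.176) and Zkscan3, described as a repressor of autophagy genes, by 0.40 (SE 0.101).

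**Figure D5:**
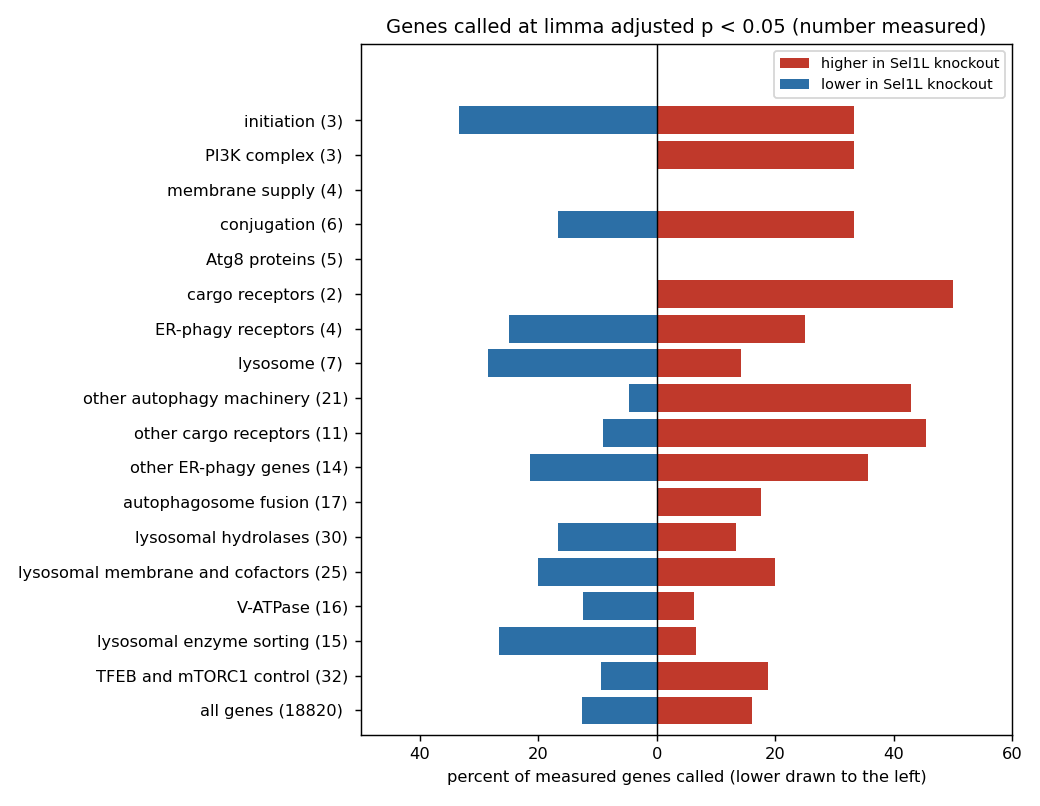
Percent of the measured genes of each list that were higher (bars to the right) or lower (bars to the left) in Sel1L knockout than in wild type at a limma adjusted p below 0.05, with the number of measured genes in brackets; the upper 8 rows are the roles of the 34 genes and the lowest row gives all 18820 genes. Most lists have bars on both sides, among them the rest of the autophagy machinery with 9 of 21 higher and 1 lower. Autophagosome fusion, and among the roles the lipid kinase (PI3K) complex and the cargo receptors, have a bar to the right only.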

How the data were processed

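Biotin-labelled cDNA made from 100 ng of pancreas RNA was hybridised to 1 array per sample, per the labels. The deposited values were made by the authors with RMA, per the submitters' processing notes, and were taken as log2, the usual RMA output, which fits their range of 0.964 to 14.37. No header names the base, the RMA version or which arrays were normalized jointly. Medians of the arrays spanned 4.938 to 5.053. Of 35556 features GEO's platform annotation named 1 gene for 21218, several for 1881 and none for 12457. Symbols were checked through Entrez identifiers against RefSeq (GRCm38.p6), which held 21185 of these features and changed 0. Keeping 1 feature per gene gave 18820 genes, with no filter on dim genes.

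Genotype was fitted with limma 3.58.1 in R 4.3.3 (lmFit and eBayes, 6 residual degrees of freedom), and a gene was called at a Benjamini-Hochberg adjusted p under 0.05 over all genes. Errors are moderated standard errors, and those of ratios are plain standard errors. Ratios of 14 family pairs, of 18 listed, were tested by exact two-sided permutation over 70 arrangements of the arrays with scipy 1.17.1 in Python 3.11.15. Precision is limited by the small number of arrays. No 2 arrays held identical values (highest pairwise r 0.9954). The fit was tested on simulated data.

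The alternatives were quantile normalization, median centring, cyclic loess, only genes above the median level, trend and robust variance, array weights, gene means over features, every feature by itself, a block for replicate number and fits without each array in turn. The members, lists, pairs and tests were chosen with earlier results of these data known. All members were to be named, with up to 3 genes per direction of each other list by adjusted p and up to 3 bright genes of each marker list. The motifs were chosen after the arrays had been read. Figures were drawn with matplotlib 3.10.9.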

Additional observations from a re-analysis of the deposited data

Results flagged for a closer look

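In 9 of 170 groups of 4 arrays, over the members, Sel1l, the marker list means and the named genes of the other lists, 1 array lay far from the other 3. Chance flags about 1 in 20 such groups, here 8.5. Among the autophagy genes these were Atg5 in wild type replicate 1 (6.68, where the remaining 3 had 7.11 to 7.14), Nbr1 in wild type replicate 3 (10.18, against 10.29 to 10.30), Map1lc3a in knockout replicate 1 (7.43, against 7.71 to 7.76 in the other knockout arrays), Atg12 in knockout replicate 4 (6.74, against 6.89 to 6.92) and Tex264 in knockout replicate 4 (8.53, against 8.34 to 8.37). Sel1l was lowest in knockout replicate 4 (11.45, against 11.66 to 11.70). Ctsc was lowest in knockout replicate 2 (10.32, against 10.60 to 10.62). In knockout replicate 1 the mean of the lymphocyte markers (4.53, against 4.16 to 4.22) and the stellate and fibroblast marker mean (8.61, against 7.87 to 7.99) were both high. Hexa and Ctsd were highest in the same array among the knockout arrays, at 8.64 and 11.17.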

How the results depend on the processing

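Of the 12 called members, 7 kept their call in all 16 other settings and 5 lost it in at least 1, with no change of sign. Of the 22 that were not called, 5 were called in at least 1 of these settings and 12 changed sign while not called. The count of members called higher, 7, was 4 after quantile normalization or cyclic loess. The count called lower, 5, was 9 after quantile normalization, median centring or cyclic loess. The median difference of the members, 0.06, was -0.06, -0.02 and -0.03 under the same 3 scalings; the cause was not tested. Leaving out 1 array gave 4 to 7 members higher, 3 to 6 lower, a median of 0.03 to 0.08, 3721 to 5227 genes called over all and 40 to 61 genes called over the other pathway lists, with 40 (63 with all arrays) without knockout replicate 3; fits with fewer arrays have fewer degrees of freedom. The number of family pairs with separate ratios was 9 to 11. Members called higher fell to 4 without knockout replicate 2, and members called lower to 3 without wild type replicate 2 or 4 or knockout replicate 1, 2 or 3. The replicate numbers showed no steady pairing of the samples. Deviations of same-numbered samples correlated at 0.222, 0.153, -0.273 and -0.0195 for replicates 1 to 4 over genes, and knockout replicate 1 correlated best with wild type replicate 3 (0.413). Deviations from a mean of 4 arrays are not independent, so these values cannot exclude a pairing. With the replicate block 5 members were higher, 3 lower and 4678 genes called. The block also ended the calls of Atg14, Atg3, Atg4b and Lamp2. Read through its second feature, Rb1cc1 was called lower, at -0.49. Background signals were not used here, so no gene was marked as dim.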

Other observations

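Some lysosomal genes outside the members varied more between arrays of 1 group than between the groups. Ctss, the gene of cathepsin S, was at 8.26, 6.93, 6.33 and 6.95 in knockout arrays, against 8.10, 5.46, 8.48 and 7.13 in wild type arrays. Cd68, a lysosomal membrane protein gene that is also on the macrophage marker list, was at 8.82, 7.95, 7.64 and 7.95 in knockout arrays, against 8.87, 6.13, 9.31 and 8.01 in wild type arrays. Both were lowest in wild type replicate 2 and, within the knockout group, highest in replicate 1. The same held for the macrophage marker mean and for the stellate and fibroblast marker mean. Their differences were -0.17 (SE 0.625, limma adjusted p = 0.847) and 0.01 (SE 0.593, limma adjusted p = 0.992). These 2 genes were chosen after their values were seen.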
